A study of Mus musculus with 8 samples.

Results

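The junctions described here are read as joins between a Cas9-broken end in Dach1 and other DNA of chromosome 14. They lay more than 10 kb and up to 1 Mb from the bait end, a position defined below. They were chosen by position alone: chromosome 14 reads of the site 1 libraries, on either strand, with each distinct 5′ end and strand counted as 1 junction. The 4 site 1 libraries held 798 of them, out of 11310 distinct junctions in all 8 libraries of the series. Of the 798, 451 came from the 10Q library, 325 from the sgRNA-only library, 22 from the 92Q library and 0 from the non-targeting library. The bait end, from which distances are counted, was position 98168726 of chromosome 14 (mm10), where the most on-cut reads of the non-targeting control begin.

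All 4 libraries were made from Neuro-2a cells, a mouse neuroblastoma line, transiently transfected with plasmids carrying SpCas9, an sgRNA and a GFP reporter. The 10Q library also received ataxin-7 with a normal tract of 10 glutamines and the 92Q library ataxin-7 with an expanded tract of 92, the kind of expansion that causes spinocerebellar ataxia type 7. The sgRNA-only library received the site 1 sgRNA without ataxin-7, and the non-targeting library an sgRNA without a target, amplified with the same bait primer. Per the labels' protocols, each library pooled 3 transfections, harvested at 48 h and sorted for GFP, and its DNA was sheared to 750 bp fragments. The series' design text mentions only the site 2 sgRNA among its targeting controls, so the site 1 sgRNA-only library rests on its own label. The junction lists do not measure ataxin-7, whether introduced or the cells' own.

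When Cas9 cuts a chromosome, most ends are joined back to their partner, some after nucleases have resected them. An end can instead join a break elsewhere, and breaks on the same chromosome are frequent partners because they lie close in the folded chromosome. In this assay a biotinylated primer beside the cut is extended across the join, and the 5′ end of the prey read marks where the foreign sequence begins. A prey read has a direction. Here a read is said to point away from the bait end if it lies above it on the plus strand or below it on the minus strand, and toward it otherwise. Joins within a few kb are commonly put down to resection of the cut ends themselves, and the stretch treated here lies farther out.

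The cut and the bait were set by 2 oligonucleotides, whose sequences the labels' protocols give. They are shown because they set where the joins could be read. Distances and directions below are counted from the bait end as found in the non-targeting library. Capitals mark the 3′ bases of the protospacer, next to the PAM, where pairing matters most for Cas9.
Site 1 sgRNA protospacer: ggtagacaTCAGCGCTGTTG
Site 1 bait primer: actaaaaagagcgcccctctttc
The genome sequence was not used here, so neither oligonucleotide was placed on the chromosome and the side of the cut on which the primer lies is not stated.

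The bait end lay 1039 bp inside Dach1, which runs on the minus strand from 98169765 down to 97786846 and codes for a nuclear transcriptional regulator related to fly dachshund. The first 381.88 kb below the bait end are thus Dach1 body. Above it the lncRNA gene Gm33583 (98169904 to 98188620) starts in the opposite direction and ends 19.894 kb from the bait end. The window then holds no RefSeq gene until 92.019 kb. The promoters of the pair overlap by 98 bases, printed in capitals. They are shown because they divide the window: every junction below them lies on the Dach1 side and every junction above them on the Gm33583 side. Both come from RefSeq (GRCm38.p6) and read 5′ to 3′ on the gene's own strand, for Dach1 at chr14:98169716-98170015 (minus) and for Gm33583 at chr14:98169918-98170217 (plus).
Dach1 promoter: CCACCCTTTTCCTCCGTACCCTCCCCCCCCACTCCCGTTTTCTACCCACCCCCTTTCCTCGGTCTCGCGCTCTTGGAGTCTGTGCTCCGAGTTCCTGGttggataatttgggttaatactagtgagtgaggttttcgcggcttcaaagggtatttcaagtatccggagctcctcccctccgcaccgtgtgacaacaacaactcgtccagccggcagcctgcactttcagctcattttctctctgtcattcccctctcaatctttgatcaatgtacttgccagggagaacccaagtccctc
Gm33583 promoter: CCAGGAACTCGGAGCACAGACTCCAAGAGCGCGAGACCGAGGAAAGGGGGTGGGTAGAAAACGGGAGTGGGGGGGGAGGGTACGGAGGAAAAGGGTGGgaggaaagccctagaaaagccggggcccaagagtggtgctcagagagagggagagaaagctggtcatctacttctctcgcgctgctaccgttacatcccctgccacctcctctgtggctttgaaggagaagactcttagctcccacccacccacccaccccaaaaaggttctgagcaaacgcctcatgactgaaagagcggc
Both lie within 10 kb of the bait end, so neither could hold a junction of this distance range. None of the 7 RefSeq promoters of the window held one, which says little for stretches of 300 bases.

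The site 1 libraries differed widely in depth: 13152 reads for 10Q, 8812 for sgRNA only, 963 for 92Q and 625 for non-targeting, with 5542, 3873, 816 and 128 distinct junctions. Behind the 451, 325 and 22 junctions stood 730, 506 and 24 reads, all of them in the on-cut lists. A single read supported 290 of the 451 10Q junctions (64.3%), 211 of the 325 sgRNA-only junctions (64.9%) and 20 of the 22 92Q junctions. Mapping quality reached 30 for 305 (67.6%), 226 (69.5%) and 16 (72.7%) of them. Each condition was 1 library, so the tests below compare libraries, not conditions, and intervals cover counting error only. Where no other test is named, an exact adjusted p comes from a two-sided Fisher's exact test with Benjamini-Hochberg adjustment. Ranges of adjusted p over the alternatives include counting as reads, where PCR copies enter as separate units. The p-values of that setting can be too small.

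Among the distinct junctions of chromosome 14, those 10 kb to 1 Mb away made up 13.7% with 10Q (451 of 3299, exact 95% interval 12.5 to 14.9) and 13.8% with the sgRNA alone (325 of 2351, 12.5 to 15.3). The difference between these libraries was -0.153 percentage points (-1.99 to 1.65; exact adjusted p = 0.875). Without positions within 1 kb of a non-targeting junction, which took junctions only from outside this range, the shares were 24.1% and 28.5% and did differ (exact adjusted p = 0.0351, and 0.0351 to 1 over all alternatives). The non-targeting library held 0 of 27, for which the upper limit is 11.1% by the rule of 3 counts and 12.8% by the exact interval, and the sgRNA-only library could not be told from it by this test (exact p = 0.0419, exact adjusted p = 0.0769). The 27 control junctions are few: over the alternatives the adjusted p of this comparison ran from 1.67e-13 to 1, the lowest with PCR copies counted as separate reads.

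Density fell more steeply within 100 kb than beyond. In the 10Q library it was 7550 junctions per Mb at 10 to 20 kb (exact Poisson 95% interval 6394 to 8855), 1883 at 20 to 50 kb (1552 to 2264) and 270 at 50 to 100 kb (178 to 393). Farther out it was 120 at 100 to 200 kb (76.9 to 179), 108 at 200 to 500 kb (83.6 to 138) and 71.0 at 500 kb to 1 Mb (55.5 to 89.6). From the innermost to the outermost class the 10Q density thus fell 106-fold (79.7 to 143), and from 100 to 200 kb to the outermost class 1.69-fold (1.02 to 2.72). The sgRNA-only library gave 7950 (6762 to 9286), 1367 (1087 to 1696), 90.0 (41.2 to 171), 105 (64.997 to 161), 31.7 (19.1 to 49.5) and 35.0 (24.4 to 48.7) junctions per Mb over the same classes. Its density fell 227-fold (157 to 338) from the first class to the last, and 3-fold (1.66 to 5.30) from 100 to 200 kb to the last. Densities were not scaled to library size, and the 92Q density, from a library of 963 reads, was far lower. It also fell, from 350 junctions per Mb at 10 to 20 kb (141 to 721) to 3 at 500 kb to 1 Mb (0.619 to 8.77).

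**Figure D1:**
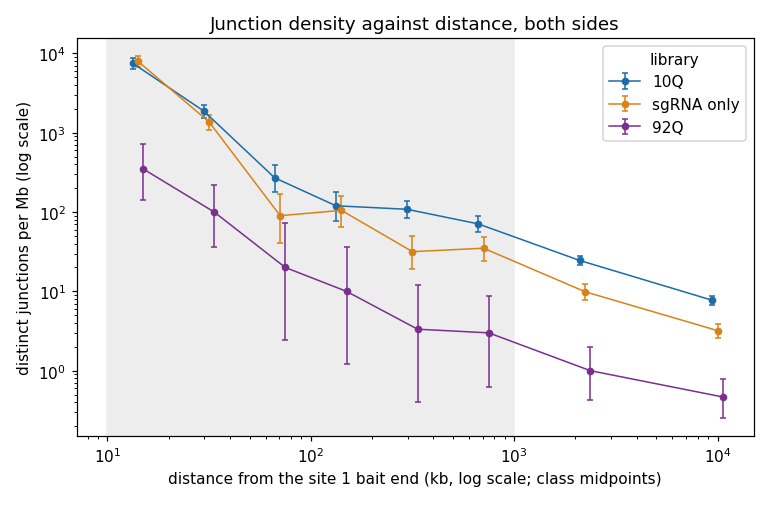
Distinct junctions per Mb (log scale, both sides summed) against distance from the bait end (kb, log scale) in the 3 targeted libraries, with exact Poisson 95% intervals; the shaded stretch is 10 kb to 1 Mb and the points to its right are 1 to 5 and 5 to 20 Mb. Densities are not scaled to library size. In these unscaled counts the 10Q and sgRNA-only curves start together at 10 to 20 kb, at 7550 and 7950 per Mb. They lie apart at 200 to 500 kb, at 108 and 31.7.

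A power law, in which density falls as distance to a fixed exponent, gave different exponents for the inner and the outer decade. From 10 to 100 kb the fitted exponent was 2.03 with 10Q (profile-likelihood 95% interval 1.83 to 2.23, 291 junctions) and 2.49 with the sgRNA alone (2.26 to 2.74, 250 junctions). From 100 kb to 1 Mb it was 0.41 (0.16 to 0.65, 160 junctions) and 0.53 (0.17 to 0.87, 75 junctions), and the intervals of the inner and outer decade did not overlap in either library. The 92Q values were 1.94 (1.13 to 2.86) and 0.51 (-0.72 to 1.64), from 15 and 7 junctions, so its intervals overlapped. These exponents pool both sides. Within the inner decade, the 10Q exponent was 1.66 below the bait end (1.37 to 1.96) and 2.30 above it (2.03 to 2.57). The sgRNA-only values there were 2.26 (1.91 to 2.64) and 2.65 (2.34 to 2.98), with intervals that overlap. The outermost stretch was still denser than the chromosome beyond it: density at 500 kb to 1 Mb was 2.90 times that at 1 to 5 Mb with 10Q (2.18 to 3.82) and 3.54 times with the sgRNA alone (2.31 to 5.34).

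The direction of the reads separated the side above the bait end from the side below it. Above it, plus-strand junctions prevailed, 183 against 64 on the minus strand with 10Q and 137 against 49 with the sgRNA alone. Below it the plus strand was in the minority, 93 against 111 with 10Q and 44 against 95 with the sgRNA alone. The 10Q plus-strand share there had an interval of 38.6 to 52.7%, which includes an even split. Farther below, plus-strand reads led with 10Q, by 23 to 19 at 200 to 500 kb and 22 to 12 at 500 kb to 1 Mb. The sgRNA-only counts there were 4 to 6 and 11 to 8. The plus-strand share was 45.6% below and 74.1% above with 10Q, a difference of -28.5 points (-36.9 to -19.5; exact adjusted p = 2.56e-09). With the sgRNA alone it was 31.7% below and 73.7% above, a difference of -42.0 points (-51.2 to -31.4; exact adjusted p = 2.06e-13). In the 92Q library it was 3 of 15 below and 3 of 7 above, which was not distinguishable (exact adjusted p = 0.413). The size of this strand difference was not shown to differ between the 10Q and sgRNA-only libraries (exact test of equal odds ratios, exact adjusted p = 0.502). Below the bait end, 10Q reads pointing toward it lay at a median distance of 185864 bp and those pointing away at 40180 bp, a difference that was not tested. The sgRNA-only medians there were 29081 and 26009 bp, and the 92Q medians 420699 bp (3 junctions) and 21667 bp (12 junctions).

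**Figure D2:**
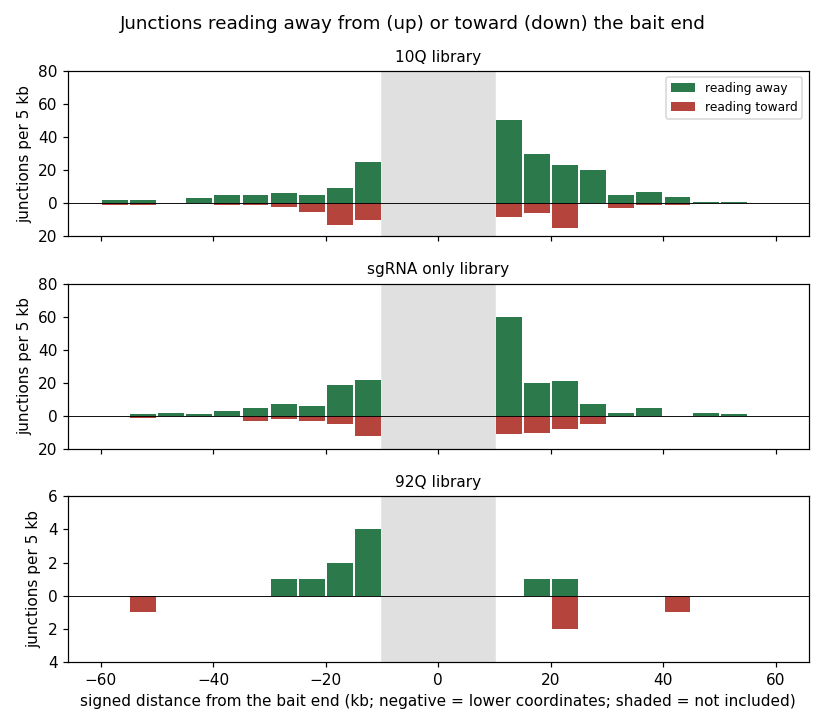
Distinct junctions per 5 kb against signed distance from the bait end up to 60 kb (kb; negative is lower coordinates), with reads pointing away drawn upward and reads pointing toward drawn downward, for the 3 targeted libraries; the vertical scale of the 92Q panel differs and the shaded 10 kb on either side are not included. At 10 to 20 kb away reads lead toward reads by 80 to 14 above and 34 to 23 below with 10Q, and by 80 to 21 and 41 to 17 with sgRNA only.

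Put together, reads pointing away from the bait end made up 65.2% of the 10Q total (60.6 to 69.6), 71.4% with the sgRNA alone (66.1 to 76.2) and 68.2% with 92Q (45.1 to 86.1). This share was taken up after the strand pattern had been seen. It stood between those of the neighbouring distances. Within 10 kb it was 91.5% in the 10Q, 92.7% in the sgRNA-only and 90.4% in the 92Q library, all higher (exact adjusted p = 5.67e-40, 3.24e-23 and 0.0126). With positions within 5 bp merged, the shares within 10 kb were 81.2%, 83.5% and 88.6%, and the differences from them narrowed from -26.3 to -16.1 points with 10Q and from -21.4 to -12.9 points with the sgRNA alone, and still passed. At 1 to 20 Mb it was 40.7% with 10Q (36.0 to 45.5) and 36.6% with the sgRNA alone (29.4 to 44.2), both lower (exact adjusted p = 1.07e-12 and 2.08e-13). At that distance the reads pointing toward the bait end were thus the more frequent ones in these libraries. The 92Q library gave 13 of 22 there, not distinguishable from its 15 of 22 closer in (exact adjusted p = 0.882).

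The share of away reads was higher within 100 kb than beyond. With 10Q the away share was 73.5% at 10 to 100 kb (214 of 291) and 50.0% at 100 kb to 1 Mb (80 of 160), a difference of 23.5 points (14.2 to 32.5; exact adjusted p = 2.38e-06). With the sgRNA alone it was 76.0% (190 of 250) and 56.0% (42 of 75), a difference of 20.0 points (7.92 to 32.3; exact adjusted p = 0.0025). In finer steps the 10Q share was 75.5% at 10 to 20 kb, 74.3% at 20 to 50 kb, 59.3% at 50 to 100 kb, 58.3% at 100 to 200 kb, 53.8% at 200 to 500 kb and 43.7% at 500 kb to 1 Mb. The sgRNA-only share held at 76.1%, 74.4%, 88.9% (8 of 9) and 76.2% (16 of 21) up to 200 kb and was 47.4% and 48.6% beyond. Among junctions of 2 or more reads the near and far shares were 75% and 60% with 10Q and 77.8% and 75% with the sgRNA alone, and neither difference passed (exact adjusted p = 0.122 and 0.866). Over all alternatives the adjusted p ran from 5.93e-08 to 0.122 with 10Q and from 0.0042 to 0.866 with the sgRNA alone.

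**Figure D3:**
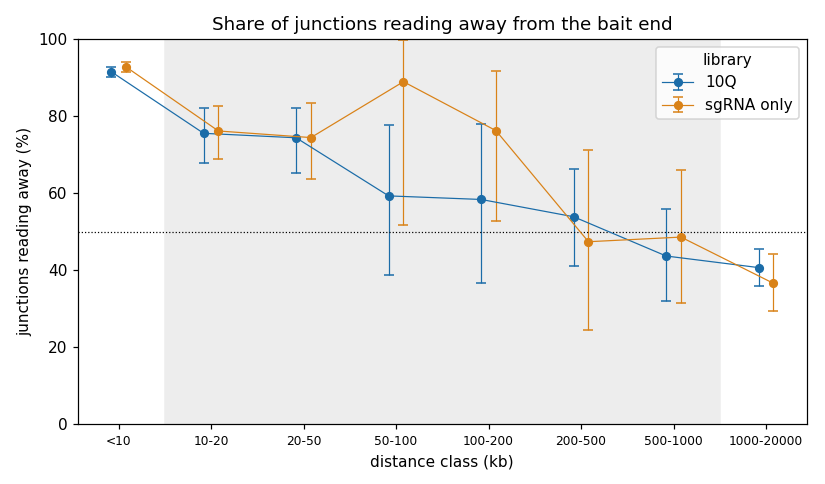
Share of distinct junctions whose read points away from the bait end (%), by distance class (kb), with exact 95% intervals, in the 10Q and sgRNA-only libraries; the dotted line marks 50% and shading the classes from 10 kb to 1 Mb. The share is above 90% within 10 kb, 75.5% and 76.1% at 10 to 20 kb, and 40.7% and 36.6% at 1 to 20 Mb.

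The lower side held a smaller share of the junctions near the bait end than of those farther away. At 10 to 100 kb the lower side, which is Dach1 body throughout, held 113 of 291 10Q junctions (38.8%) and 95 of 250 sgRNA-only junctions (38.0%). At 100 kb to 1 Mb it held 91 of 160 (56.9%, 48.8 to 64.7) and 44 of 75 (58.7%, 46.7 to 69.9), intervals that include an even split. The near share minus the far share was -18.0 points with 10Q (exact adjusted p = 0.000594, and 0.00102 to 1 over the alternatives) and -20.7 points with the sgRNA alone (exact adjusted p = 0.0044, and 0.000105 to 0.0603 over the alternatives). Among 10Q junctions of 2 or more reads it was -2.84 points, 48.3% against 51.1%. With the innermost 10 kb left out, so that counting began at 20 kb, the sgRNA-only difference of -18.0 points no longer passed. The 92Q library held 10 of 15 near and 5 of 7 far on the lower side.

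The surplus above the bait end sat in the first 50 kb. At 10 to 20 kb the higher side had 94 junctions and the lower 57 with 10Q, and 101 and 58 with the sgRNA alone. At 20 to 50 kb the counts were 80 and 33 with 10Q and 50 and 32 with the sgRNA alone. At 50 to 100 kb the 10Q order turned, with 4 junctions above (80.0 per Mb, 21.8 to 205) and 23 below (460 per Mb, 292 to 690), while the sgRNA-only library had 4 and 5. Mapping quality reached 30 for 15 of these 27 10Q junctions. From 20 to 50 kb to 50 to 100 kb, density on the higher side fell from 2667 to 80.0 per Mb with 10Q. With the sgRNA alone it fell from 1667 to 80.0. In steps of 10 kb from 20 to 60 kb this fall was graded, with 58, 16, 6 and 1 junctions above with 10Q. The sgRNA-only counts there were 41, 7, 2 and 1.

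**Figure D4:**
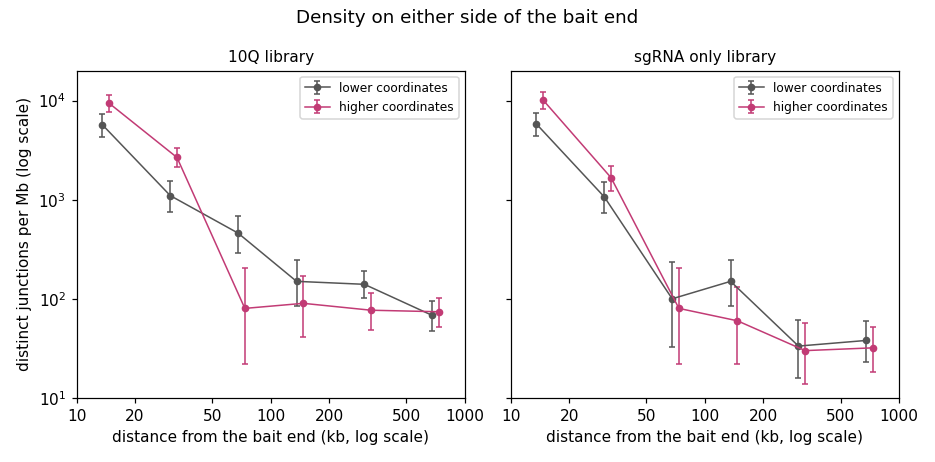
Distinct junctions per Mb (log scale) below and above the bait end against distance (kb, log scale), with exact Poisson 95% intervals, in the 10Q and sgRNA-only libraries. The higher side leads at 10 to 20 kb (9400 against 5700 per Mb with 10Q, 10100 against 5800 with sgRNA only), and at 50 to 100 kb the 10Q lower side stands at 460 against 80.0.

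Over the 3 targeted libraries the densest 10-kb intervals were those nearest to the bait end on either side. The interval 10 to 20 kb above the bait end (98178727 to 98188726), nearly all Gm33583 body, held 94 10Q, 101 sgRNA-only and 1 92Q junction. Its mirror image below (98148726 to 98158725), in Dach1, held 57, 58 and 6. The next intervals, 20 to 30 kb away, held 58, 41 and 3 above (98188727 to 98198726) and 18, 18 and 2 below (98138726 to 98148725). The fifth place was shared by the intervals 30 to 40 kb away, with 16, 7 and 0 above and 12, 11 and 0 below. Reads of mapping quality 30 or more supported 65 of the 94 10Q junctions and 68 of the 101 sgRNA-only junctions in the densest interval.

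By gene, Dach1 held 158 10Q junctions (35.0%), 115 sgRNA-only junctions (35.4%) and 11 of the 22 92Q junctions. Gm33583 held 92 (20.4%), 101 (31.1%) and 1. Within both genes most reads lay on the gene's own strand: 93 of 158 and 84 of 115 on the minus strand in Dach1, and 79 of 92 and 80 of 101 on the plus strand in Gm33583, for 10Q and sgRNA only, and 10 of 11 in Dach1 with 92Q. On each side that strand is also the one that points away from the bait end, so the 2 cannot be told apart inside these genes. In the stretch without a RefSeq gene between Gm33583 and 92.019 kb, 63 of 86 10Q junctions pointed away (73.3%, 62.6 to 82.2), as did 41 of 54 sgRNA-only junctions (75.9%, 62.4 to 86.5). The 92Q library had 4 junctions there, of which 1 pointed away.

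Set against the same distances above the bait end, the Dach1 body held fewer junctions. It had 158 of 360 in the 10Q library (43.9%, 38.7 to 49.2; binomial exact adjusted p = 0.035) and 115 of 281 with the sgRNA alone (40.9%, 35.1 to 46.9; binomial exact adjusted p = 0.00837). With counting from 20 kb the deviations from an even split, -6.11 and -9.07 points before, were -1.67 and -3.28 points and neither passed. Among junctions of 2 or more reads the 10Q deviation was 1.85 points, and over all alternatives the adjusted p ran from 0.0379 to 1 with 10Q and from 9.93e-05 to 1 with the sgRNA alone. The 92Q library had 11 of 17 (binomial exact adjusted p = 0.332).

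Of the 18 RefSeq genes that reach into the window, 5 were protein-coding and 10 held no junction of this range. Those 10 were snoRNA genes, snRNA genes and pseudogenes of 100 to 966 bp, too short for an empty count to say much. The protein-coding genes other than Dach1 lay 866 kb or more above the bait end and held few. Mzt1, a partner of the gamma-tubulin ring complex, and Bora, a cofactor of Aurora A kinase, overlap at their ends, and each was hit by 1 junction with 10Q. Dis3, the ribonuclease of the RNA exosome, had 1 with the sgRNA alone. Pibf1, a centrosome and centriolar satellite protein gene cut by the 1 Mb limit, had 4 with 10Q and 2 with the sgRNA alone. Of the lncRNA genes there, Gm41228 had 5 with 10Q and Gm46478 had 1. Gene bodies cover 29.9% of the window and held 58.1% of 10Q junctions, 67.4% of sgRNA-only and 54.5% of 92Q junctions. Dach1 and Gm33583 lie beside the bait end, where density is highest, so this excess is not separate from distance.

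Single positions carried few reads. The junction with the most was a 10Q position 18078 bp below the bait end (98150648, plus strand), with 9 reads of mapping quality up to 42. No other had more than 6, a count reached by 3 junctions with 10Q and 3 with the sgRNA alone. One of the latter, at 98183733 on the minus strand, had a mapping quality of 0. Distinct positions numbered 791, and 7 of them were found in both the 10Q and the sgRNA-only library (1.55% of the former, 2.15% of the latter). Of these 7, 6 lay within 30 kb of the bait end. Sharing between these libraries was not counted at other distances, so these percentages cannot be called particular to this range. No position was shared by 3 libraries, and no site 2 library had a junction in the window.

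The 10Q and sgRNA-only libraries differed in how far their junctions reached. The share within 100 kb was 64.5% with 10Q (59.9 to 68.9) and 76.9% with the sgRNA alone (71.95 to 81.4), a difference of -12.4 points (-18.6 to -5.91; exact adjusted p = 0.00258). Median distance was 29217 bp (quartiles 16340 and 307110) with 10Q and 20950 bp (13680 and 54229) with the sgRNA alone. With a boundary at 50 kb the difference was -15.6 points, and at equal reads it was -12.1. It no longer passed with counting from 20 kb (-8.15 points) or among junctions of 2 or more reads (-6.90 points), and its adjusted p ran from 1.36e-05 to 1 over the alternatives.

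Counted per distance class, the 10Q to sgRNA-only ratio of distinct junctions was 0.95 at 10 to 20 kb (0.755 to 1.19), against 1.43 over the whole libraries (1.37 to 1.49). It was 1.38 at 20 to 50 kb (1.03 to 1.85), 3 at 50 to 100 kb (1.37 to 7.25), 1.14 at 100 to 200 kb (0.61 to 2.16), 3.42 at 200 to 500 kb (2.03 to 6.04) and 2.03 at 500 kb to 1 Mb (1.34 to 3.13). Outside the range it was 1.22 within 10 kb (1.14 to 1.303), 2.48 at 1 to 5 Mb (1.90 to 3.26) and 2.42 at 5 to 20 Mb (1.90 to 3.10). The intervals lay below the overall ratio within 10 kb and at 10 to 20 kb, and above it at 200 to 500 kb, 1 to 5 Mb and 5 to 20 Mb. At 200 to 500 kb the counts were 42 below and 23 above with 10Q and 10 and 9 with the sgRNA alone. No difference was detected between these libraries in the lower-coordinate share (45.2% and 42.8%, difference 2.46 points, -4.61 to 9.46), the plus-strand share (61.2% and 55.7%, 5.51 points, -1.50 to 12.5) or the away share (-6.20 points, -12.7 to 0.475), with exact adjusted p = 0.603, 0.201 and 0.11.

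**Figure D5:**
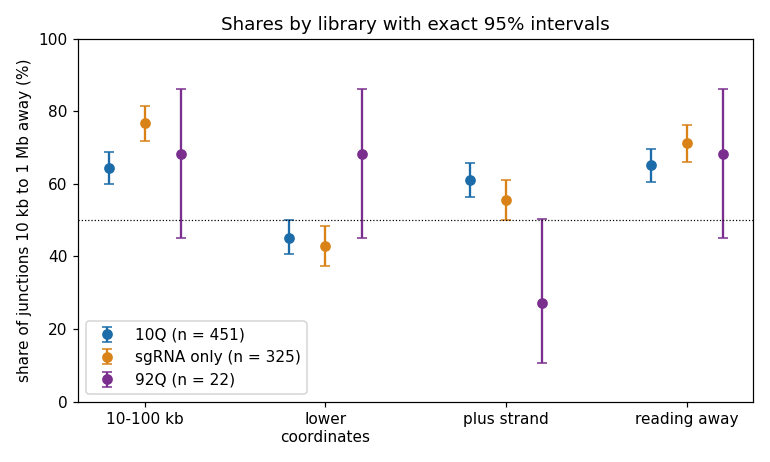
Shares of the junctions 10 kb to 1 Mb away (%) that lie within 100 kb, at lower coordinates, on the plus strand or read away from the bait end, in each targeted library, with exact 95% intervals; the dotted line marks 50%. The 10Q and sgRNA-only shares within 100 kb are 64.5% and 76.9%, and the 92Q plus-strand share is 27.3%, from 22 junctions.

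The 92Q library, the expanded ataxin-7 of the study's main question, held 22 junctions here, 0.0488 times the 10Q number (0.0303 to 0.0748), against 0.147 times over the whole libraries (0.137 to 0.158). The ratio was low elsewhere on chromosome 14 as well, at 0.0924 within 10 kb (0.0791 to 0.107), 0.0408 at 1 to 5 Mb (0.0174 to 0.0820) and 0.0603 at 5 to 20 Mb (0.0325 to 0.103). They made up 8.40% of its chromosome 14 junctions (22 of 262, 5.34 to 12.4), which differed from 10Q by -5.27 points (-8.31 to -1.13; exact adjusted p = 0.0358) and from the sgRNA alone by -5.43 points (-8.57 to -1.22; exact adjusted p = 0.0358). Reads per junction also differed, at 2.37 in the 10Q library, 2.28 in the sgRNA-only library and 1.18 in the 92Q library. A link between this and the lower share was not tested. At an equal 963 reads the expected share was 9.35% with 10Q and 9.87% with the sgRNA alone, which leaves a 92Q difference of -0.954 points from 10Q. The expected number of junctions here at that depth was still 51.0 with 10Q and 52.1 with the sgRNA alone, against 22 with 92Q. For chromosome 14 as a whole it was 546 and 527, against 262. Counted as reads the 92Q share was 7.5% and the 10Q share 7.52%. With positions within 5 bp merged the difference was -12.2 points, so its size depended on how repeated positions were counted (exact adjusted p of 0.00016 to 1 over the alternatives).

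The 22 junctions of the 92Q library could not be told from an even split between sides (binomial exact adjusted p = 0.134) or strands (binomial exact adjusted p = 0.063). Below the bait end lay 15, of which 12 were on the minus strand, and 7 lay above, of which 3 were on the plus strand. The nearest was 10062 bp below and the farthest 922583 bp below. Within 10 to 20 kb 6 lay below and 1 above, whereas the 10Q and sgRNA-only libraries had more above. The plus-strand share was 27.3% (6 of 22), against 61.2% with 10Q (difference -33.9 points, -48.7 to -12.6; exact adjusted p = 0.0186) and 55.7% with the sgRNA alone (-28.4 points, -43.5 to -6.84; exact adjusted p = 0.0358). With a mapping quality of 30 or more, 5 of 16 were left on the plus strand (31.2%) and neither comparison passed. Counting from 20 kb ended both calls too, and over the alternatives the exact adjusted p ran from 0.00961 to 0.346 against 10Q and from 0.0318 to 0.523 against the sgRNA alone. The lower-coordinate share, 68.2% against 45.2% and 42.8%, did not pass (exact adjusted p = 0.0769 and 0.056). The away share differed from 10Q by 2.99 points (-18.3 to 19.1) and the share within 100 kb by 3.66 points (-17.6 to 19.8), intervals too wide to show that the libraries are alike (exact adjusted p = 1 and 0.875).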

How the data were processed

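Junctions were taken from the on-cut and off-cut lists of the 4 site 1 libraries, 8 lists in all. Each deposited line holds 1 aligned read (chromosome, start, end, name, strand) and a score, the mapping quality (0 to 42), as its only measured value. Per the submitters' processing notes, the tools include Bowtie2 and the builds include mm10 and mm9, each without a stated role. The lists' coordinates were read as mm10, in which the bait end falls in Dach1. The aligner's version, the filters and the handling of duplicates were not given in the sources used here. Gene coordinates came from RefSeq (GRCm38.p6), the mm10 assembly. The 5′ end was start + 1 on the plus strand and end on the minus strand, and repeated lines were collapsed, since PCR copies carry no molecular identifier here and cannot be told from separate molecules. The site 2 lists were read only to count junctions. The whole-library counts omit 43 reads on other sequences than the standard chromosomes.

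Shares carry Clopper-Pearson and counts exact Poisson 95% intervals; differences carry Newcombe intervals. Two-sided Fisher's exact tests compared libraries (16 planned, 13 possible because the non-targeting library had no member) and distances or sides within libraries (21). Two-sided exact binomial tests compared sides and strands with an even split (6) and Dach1 with its mirror interval (3). Tests of the away share (12) and of equal odds ratios (6), and exponents per decade, were added after the data were seen. Each set was adjusted separately by Benjamini-Hochberg, with a threshold of 0.05. Values at equal reads are exact hypergeometric expectations. Mappability and copy number were not corrected. The members, genes and tests were chosen with earlier results of these data known. Named genes were Dach1, each protein-coding gene of the window and up to 5 non-coding genes with at least 3 junctions in a library; Gm46478 was named outside this rule, after its count was seen. Named positions were the 5 densest 10-kb intervals and the junctions with the most reads. Functions were tested on simulated data. Python 3.11.15, SciPy 1.17.1, NumPy 2.4.6, pandas 2.3.3 and matplotlib 3.10.9 were used.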

Additional observations from a re-analysis of the deposited data

How the results depend on the processing

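Values are differences in percentage points. Calls made when counted as reads treat PCR copies as independent, so a call gained or passed only there carries little weight. The differences of the plus-strand share between the sides kept their direction and their call in the 10Q and sgRNA-only libraries under all 5 alternatives run for them (-41.4 to -19.7 and -55.5 to -33.7), as did the away share against 1 to 20 Mb (19.3 to 32.6 and 30.2 to 43.9). The 10Q to sgRNA-only difference in the share within 100 kb kept its direction under all 9 alternatives (-15.6 to -6.90). No paired analysis was possible because each group is 1 library. With 2 or more reads the 92Q library kept 2 junctions here, and shares with fewer than 5 junctions in a denominator were not computed. No test was made for reads rarefied to equal depth.

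The lower share of 92Q among chromosome 14 junctions depended on processing. Against 10Q it was -3.50 with mapping quality 30 or more, -3.75 with 2 or more reads, -0.0196 counted as reads, -3.37 from 20 kb, -4.99 without positions near non-targeting junctions and -0.714 without positions shared between libraries. Against the sgRNA alone these were -3.30, -4.08, -0.287, -1.34, -9.35 and -3.90. None of these passed the test. At equal reads, where no test was made, the differences shrank to -0.954 and -1.48, whereas merging positions within 5 bp kept both calls (-12.2, -14.7). The 10Q to sgRNA-only difference became 0.200 with mapping quality 30, 2.03 from 20 kb and -4.37 without positions near non-targeting junctions, the last past the test. Against the non-targeting library the sgRNA-only share was higher by 7.79 counted as reads, which are not independent molecules, and by 25.5 merged, both past the test. Removal of positions near non-targeting junctions gives no comparison with that library, since its own junctions define the filter.

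The plus-strand difference of 92Q lost its call with mapping quality 30 (-30.4 against 10Q, -27.6 against the sgRNA alone) and from 20 kb (-24.3, -17.3). Against the sgRNA alone it also did so counted as reads (-25.0) and without shared positions (-28.4). The share within 100 kb of 10Q against the sgRNA alone lost its call with 2 or more reads (-6.90) and from 20 kb (-8.15), and the lower-coordinate difference became -0.313 with mapping quality 30. The 92Q away share against 10Q turned to -10.6 with mapping quality 30, -3.80 as reads and -6.67 from 20 kb. From 20 kb the 92Q away share turned between decades (-7.14) and against 1 to 20 Mb (-5.76), and with mapping quality 30 its side difference between decades turned (3.64).

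Within libraries, merging positions within 5 bp changed the comparisons with junctions within 10 kb. The lower-coordinate difference fell from 26.1 to 3.33 with 10Q and from 26.9 to 5.97 with the sgRNA alone, and neither passed any longer. The 10Q plus-strand difference, -16.6 before merging, turned to 7.44 and passed in the opposite direction. With the sgRNA alone the plus-strand difference went from -25.1 to -0.958 and lost its call. With 2 or more reads the differences between decades were 15 (10Q) and 2.78 (sgRNA alone) for the away share, -2.84 for the 10Q lower-coordinate share and -1.74 for the 10Q plus-strand share. That last one was -0.982 from 20 kb. The sgRNA-only side difference between decades was -18.0 from 20 kb, and its strand difference gained a call counted as reads (15.9). Against 1 to 20 Mb, the 10Q lower-coordinate difference turned to 7.86 with 2 or more reads, 2.85 as reads, 2.21 with mapping quality 30 and 2.74 from 20 kb. Counted as reads the sgRNA-only side and strand differences there passed (-9.44, 9.32).

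Deviations from an even split moved as follows. The sgRNA-only lower-coordinate share lost its call with 2 or more reads (-7.89), mapping quality 30 (-5.75), merging (-5.81) and from 20 kb (-1.20). The 10Q plus-strand share lost it with 2 or more reads (6.52) and from 20 kb (7.67), and the sgRNA-only plus-strand share gained one with mapping quality 30 (8.85). For Dach1 against its mirror interval, 10Q became 1.85 with 2 or more reads, -0.836 as reads and -1.67 from 20 kb, and sgRNA only -10.4 with 2 or more reads and -3.28 from 20 kb. Where fewer junctions were counted, a lost call also has fewer junctions behind it. For the other changes the cause was not tested.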
